A study of Mus musculus with 9 samples.

Results

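Transcripts of 5 granzymes and of perforin were followed in innate lymphoid cells (ILCs) of mouse skin, across 9 Affymetrix arrays in 4 groups of sorted cells. ILCs are lymphocytes without rearranged antigen receptors. The members are Gzma, Gzmb, Gzmc, Gzmk, Gzmm and Prf1, 6 of the 19752 genes that had a probe set with 1 gene symbol, and each was read by 1 probe set. They were chosen by symbol after their intensities and log2 differences between these 4 groups had been measured. Their own values below are therefore a description and carry no p-value. Whether a member was among the called probe sets is stated, but nothing is read from it. The largest signal was that of Gzmc, which read 560 to 1173 on the 5 arrays of Rag1-/- mice, against 31.3 to 88.6 on the 4 arrays of mice with intact Rag1.

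The groups were the GFP+ cells of Rag1-/- mice (n = 2), the GFP- cells of Rag1-/- mice (n = 3), the GFP+ cells of Rag1-sufficient mice (n = 2) and the GFP- cells of Rag1-sufficient mice (n = 2). Per the labels, all mice were female B6 mice with EGFP at one Ccr10 allele (CCR10+/EGFP), so the GFP- gate and both genotypes carried the reporter too and had a single intact Ccr10 copy. The Rag1-/- mice (Rag1-/-CCR10+/EGFP) lack the recombinase that builds T and B cell receptors, and so had skin without conventional T and B cells. Their age was not given. The sort kept CD45.2+ cells and excluded those with CD3, CD5, Gr-1, CD11b, the 7-4 antigen, B220 or a Ter antigen. This exclusion names no marker particular to mast cells or NK cells, and how many of these cells it removed was not tested. Whether replicates are separate animals is not stated in the labels. The p-values given for other genes therefore cover the sample-to-sample spread alone, which may be technical.

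Granzymes are serine proteases stored in the cytotoxic granules of killer lymphocytes. Perforin, the product of Prf1, forms pores through which granzymes reach the cytosol of a target cell. Gzmb cleaves after aspartate and triggers caspases, Gzma and Gzmk cleave after basic residues, Gzmm prefers methionine or leucine, and the targets of the rodent granzyme Gzmc are less well known. NK cells, cytotoxic T cells and group 1 ILCs are the usual sources, and mouse ILC1s are known to carry Gzmc. The skin ILCs of healthy mice are mainly ILC2s, which are known for type 2 cytokines rather than for killing.

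Levels are intensities as the authors deposited them, on a linear scale. Differences are on the log2(intensity + 1) scale, with the Rag1-/- or the GFP+ cells on top, as estimate ± SE from a linear model (limma) of all 4 groups. A filter removed the dimmest 30% of probe sets by mean, those under an intensity of 41.6. Gzmb, Gzmc, Gzmm and Prf1 passed that filter, and Gzma and Gzmk did not. A probe set was called when its Benjamini-Hochberg adjusted p over all 17445 tested sets was under 0.05. The arrays were on a common scale, with medians between 74.1 and 77.6, and rank correlations between pairs of arrays ran from 0.939 to 0.985. The 2 Rag1-/- GFP+ arrays correlated at 0.958, the lowest value within a group, and replicate 2 of that group correlated at 0.985 with Rag1-/- GFP- replicate 1. The ILC genes Id2 (6727 to 7905), Icos (6561 to 7724), Thy1 (3121 to 5227) and Gata3 (2263 to 4017) were bright on all 9 arrays. Rag1 read 28.4 to 31.4 on all arrays, under the filter limit, so it did not check the genotype labels. Ccr10 read 96.5 to 148 on Rag1-/- GFP+, 103 to 125 on Rag1-/- GFP-, 130 to 163 on Rag1-sufficient GFP+ and 126 to 129 on Rag1-sufficient GFP- arrays. In sorted bulk samples, fewer cells of a type and less RNA per cell cannot be told apart.

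The promoters of Gzmc, of its chromosomal neighbour Gzmb and of Prf1 are shown because Gzmc and Prf1 read higher on all Rag1-/- arrays while Gzmb did not. Each window runs from 250 bases before to 50 after the RefSeq start in the mouse build GRCm38.p6, on the strand of the gene. Capitals mark matches, on either strand, to 6 motifs of factors that act on cytotoxic genes.
Gzmc, chr14:56234608-56234907, minus strand: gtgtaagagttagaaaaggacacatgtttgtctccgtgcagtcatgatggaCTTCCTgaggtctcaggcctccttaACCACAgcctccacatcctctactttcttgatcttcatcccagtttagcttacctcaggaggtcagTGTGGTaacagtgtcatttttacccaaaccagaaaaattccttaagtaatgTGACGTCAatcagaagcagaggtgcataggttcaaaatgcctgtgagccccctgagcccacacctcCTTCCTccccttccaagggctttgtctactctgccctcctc
Gzmb, chr14:56262285-56262584, minus strand: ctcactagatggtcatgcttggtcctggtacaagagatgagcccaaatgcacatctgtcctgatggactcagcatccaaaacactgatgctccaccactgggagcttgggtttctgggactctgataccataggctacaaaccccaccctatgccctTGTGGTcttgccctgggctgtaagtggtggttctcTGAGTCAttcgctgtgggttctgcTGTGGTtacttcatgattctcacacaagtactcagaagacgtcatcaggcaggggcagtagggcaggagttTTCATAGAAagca
Prf1, chr10:61297586-61297885, plus strand: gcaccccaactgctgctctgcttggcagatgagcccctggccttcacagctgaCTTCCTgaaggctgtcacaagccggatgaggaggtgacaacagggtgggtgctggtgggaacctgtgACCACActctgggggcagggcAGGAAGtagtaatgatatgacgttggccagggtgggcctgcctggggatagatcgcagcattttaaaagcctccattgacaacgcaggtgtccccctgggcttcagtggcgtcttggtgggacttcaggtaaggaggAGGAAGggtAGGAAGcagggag

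The motifs searched were T-box (GGTGTGA, in 3.98% of 32851 mouse promoter windows of this length), Runx (TGTGGT, 16.8%), AP-1 (TGANTCA, 7.81%), STAT (TTCNNNGAA, 8.3%), CRE (TGACGTCA, 1.79%) and Ets (AGGAAG, 35.4%). No match overlapped another in these 3 windows. The Gzmc window held Runx matches at -174 and -108, a CRE match at -57 and Ets matches at -199 and 10, counted from the start. The Gzmb window held Runx matches at -93 and -34, an AP-1 match at -58 and a STAT match at 38. The Prf1 window held a Runx match at -130 and Ets matches at -197, -109, 29 and 38. A match is only a run of letters, and a motif without a match in these windows says nothing about its factor. Aligned end to end, the Gzmc window shared 83.8% of aligned columns with that of Gzme and 83.4% with that of Gzmd, both granzyme genes of the same locus. It shared 49.2% with that of Gzmb and 45.6% with that of Prf1.

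The Gzmc level separated the genotypes. It read 560 and 872 in Rag1-/- GFP+ cells and 870, 677 and 1173 in Rag1-/- GFP- cells. In Rag1-sufficient mice it read 45.2 and 31.3 in GFP+ cells and 86.6 and 88.6 in GFP- cells. Every Rag1-/- array was thus above every Rag1-sufficient array, with medians of 870 and 65.9. In GFP+ cells the means were 716 ± 220 in Rag1-/- and 38.3 ± 9.85 in Rag1-sufficient mice (SD, n = 2 each), a difference of 4.18 ± 0.30, or 18.1-fold. In GFP- cells they were 907 ± 250 (SD, n = 3) in Rag1-/- and 87.6 ± 1.36 (SD, n = 2) in Rag1-sufficient mice, a difference of 3.32 ± 0.27, or 9.99-fold. The Rag1-sufficient GFP+ mean lies under the filter limit, so the size of the GFP+ difference is approximate.

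Of the 4 members in the fit, 1 (Gzmc) was among the called sets by genotype, in GFP+ as well as in GFP- cells. The choice of members used these values, so that count is no evidence and nothing is read from it. Of all probe sets, 0.246% were called in GFP+ cells and 0.143% in GFP- cells, and 9 in each were higher in Rag1-/- cells (0.0516%). In GFP+ cells 11.0% of all sets had every Rag1-/- array above every Rag1-sufficient array, and in GFP- cells 23.0%. The count varied with the setting. No member was called in GFP+ cells with only the groups compared, nor in either gate in some fits lacking an array. In other settings Gzmc stayed called. With each array left out in turn, the difference of Gzmc was 3.86 to 4.50 in GFP+ and 3.12 to 3.51 in GFP- cells.

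**Figure D1:**
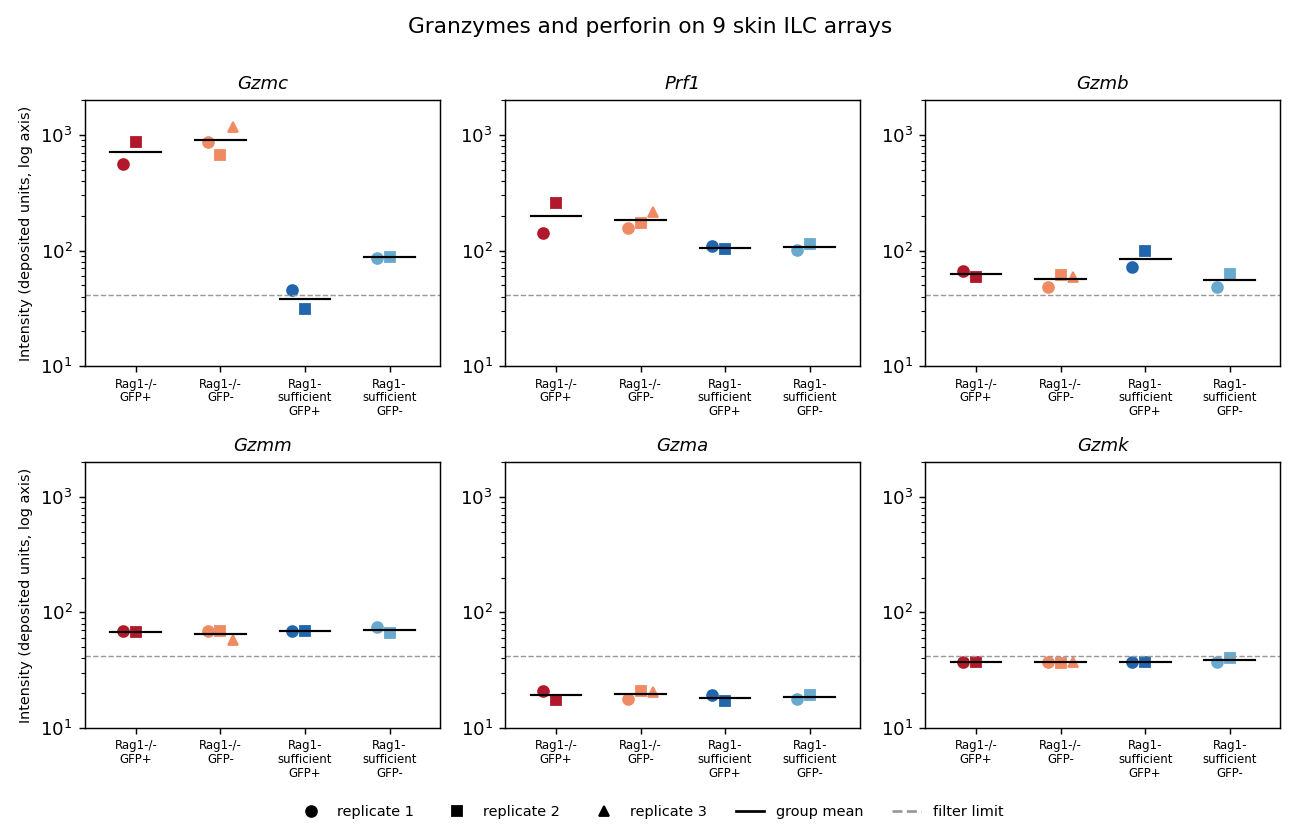
Intensities of Gzmc, Prf1, Gzmb, Gzmm, Gzma and Gzmk on each of the 9 arrays, on a log axis, by group, with replicate numbers as symbols, the group mean as a bar and the filter limit of 41.6 as a dashed line. Gzmc sits at 560 to 1173 on the Rag1-/- arrays and at 31.3 to 88.6 on the Rag1-sufficient arrays, Prf1 at 142 to 258 and at 101 to 113, and Gzma and Gzmk lie under the line on all arrays.

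Between the GFP gates Gzmc differed less. In Rag1-/- mice the GFP+ and GFP- arrays overlapped, and the difference was -0.34 ± 0.27. In Rag1-sufficient mice both GFP+ arrays read below both GFP- arrays, with a difference of -1.20 ± 0.30 that was not called. Among all probe sets, 21.2% had every GFP+ array below every GFP- array in that comparison, and 0.803% were called. The interaction, the GFP+ minus GFP- difference in Rag1-/- mice less that in Rag1-sufficient mice, was 0.86 ± 0.41 for Gzmc. The genotype and gate comparisons share arrays and are therefore not independent of each other.

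Prf1, the pore former, read 142 and 258 in Rag1-/- GFP+ cells and 158, 174 and 217 in Rag1-/- GFP- cells. It read 109 and 102 in Rag1-sufficient GFP+ cells and 101 and 113 in Rag1-sufficient GFP- cells. The lowest Rag1-/- array was again above the highest Rag1-sufficient array, with medians of 174 and 105. Gzmc and Prf1 were the 2 members with that separation, which 231 of all tested sets (1.32%) had, while 289 (1.66%) had the opposite one. The Prf1 means in GFP+ cells were 200 ± 81.7 in Rag1-/- and 105 ± 4.75 in Rag1-sufficient mice (SD, n = 2 each), a difference of 0.85 ± 0.26. It was 0.43 without Rag1-/- GFP+ replicate 2 and 1.28 without replicate 1. In GFP- cells the means were 183 ± 30.7 (SD, n = 3) in Rag1-/- and 107 ± 8.06 (SD, n = 2) in Rag1-sufficient mice, a difference of 0.75 ± 0.24. Neither difference was called. Between the gates Prf1 differed by 0.08 ± 0.24 in Rag1-/- and by -0.02 ± 0.26 in Rag1-sufficient mice, and the arrays of the gates overlapped in both genotypes. In Rag1-/- mice 1 array set the sign of that difference, which was 0.51 without GFP+ replicate 1 and -0.35 without GFP+ replicate 2.

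Gzmb, the granzyme most tied to caspase activation, followed another order. It read 66.5 and 59.5 in Rag1-/- GFP+ cells, 48.8, 61.5 and 58.8 in Rag1-/- GFP- cells, 71.6 and 98.9 in Rag1-sufficient GFP+ cells and 48.8 and 63.2 in Rag1-sufficient GFP- cells. The highest readings were the 2 Rag1-sufficient GFP+ arrays, which were also the most unlike each other. Both lay above both Rag1-sufficient GFP- arrays (difference between gates 0.59 ± 0.18) and above both Rag1-/- GFP+ arrays (difference between genotypes -0.41 ± 0.18). Neither was called, and complete separation of that kind was common, with 29.0% of all sets higher on every GFP+ array in Rag1-sufficient mice and 18.5% lower on every Rag1-/- array in GFP+ cells. Without Rag1-sufficient GFP+ replicate 2 the gate difference was 0.36 and the genotype difference -0.18. Without replicate 1 they were 0.82 and -0.65. In GFP- cells Gzmb differed by 0.01 ± 0.17 between genotypes, and between the gates of Rag1-/- mice by 0.16 ± 0.17.

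Gzmm lay between 57.3 and 74.2 on all arrays, above the filter limit, and 4 arrays held the same deposited value of 68.6. Its 4 differences ran from -0.12 ± 0.10 for genotype in GFP- cells to 0.07 ± 0.10 for the gates of Rag1-/- mice. Gzma and Gzmk, which sit side by side on chromosome 13, were dim throughout, Gzma between 17.1 and 20.8 and Gzmk between 36.5 and 40.2. They were not tested, and their log2 differences in the 4 comparisons lay between -0.07 and 0.08. The deposited table holds no detection calls, so it cannot be said whether these readings exceed background.

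**Figure D2:**
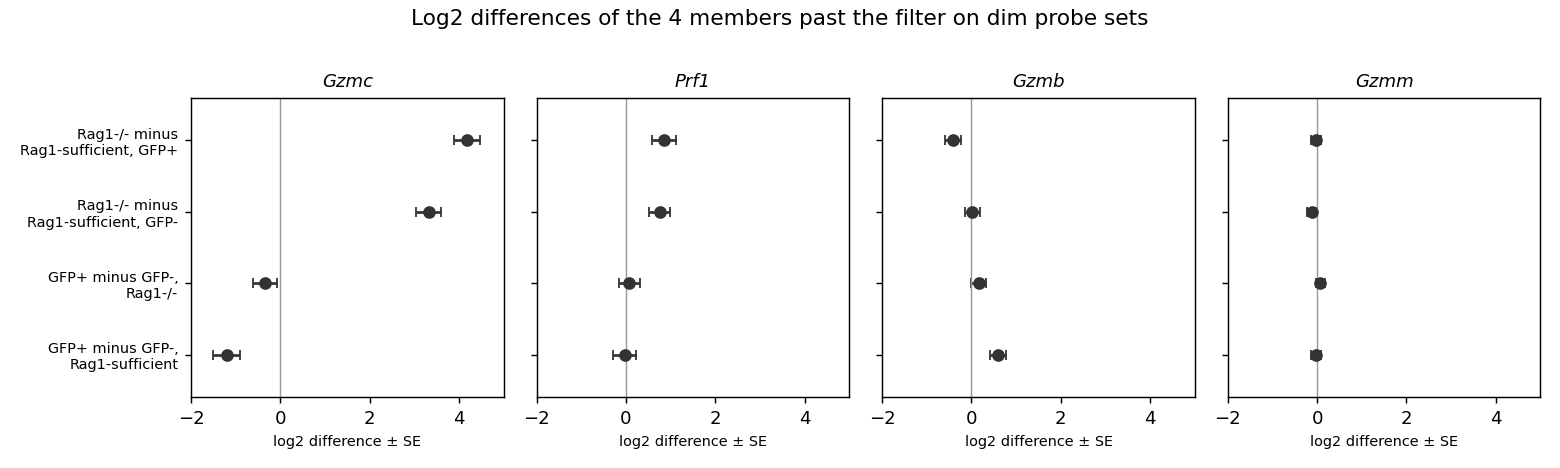
Log2 differences with SE for Gzmc, Prf1, Gzmb and Gzmm in 4 comparisons, 2 between Rag1-/- and Rag1-sufficient cells and 2 between GFP+ and GFP- cells. Gzmc lies at 4.18 and 3.32 in the genotype comparisons and at -0.34 and -1.20 in the gate comparisons, Prf1 at 0.85 and 0.75 in the genotype comparisons, and all values of Gzmb and Gzmm lie within 0.6 of 0.

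Over the 9 arrays, which share genotypes and gates, Gzmc and Prf1 had a Pearson correlation of 0.88 and Gzmb and Gzmc one of -0.56. Gzmb and Prf1 were at -0.33 and Gzmb and Gzmm at -0.01. The genes most like each member were ranked by the same measure over 13920 genes. Predicted genes and clones are not named, and for Gzmc 1 such gene ranked above those given here. Closest to Gzmc were Litaf, a regulator of lysosomal sorting (0.97), Kcnma1, a potassium channel (0.96), the small GTPase Rap2a (0.96), the calmodulin-binding Nrgn (0.95) and the T cell receptor-associated chain Cd3e (0.95). The Kcnma1 set read 8736 to 9891 on the Rag1-/- arrays and 23.2 to 49.8 on the Rag1-sufficient ones, while the other probe set of that gene read 50.9 to 70.2 on the Rag1-/- arrays and 37.8 to 43.9 on the Rag1-sufficient ones. The 2 sets share a direction and disagree in level and size. Nrgn averaged 398 and 435 in the GFP+ and GFP- cells of Rag1-/- mice, against 182 and 234 in those of Rag1-sufficient mice.

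Closest to Prf1 were the actin-binding villin relative Avil (0.99), the cadherins Cdh17 (0.99) and Cdh1 (0.97), the NK receptor chain Klrd1 (0.97) and the endocytic lectin receptor Ly75 (0.97). Cdh1, which encodes E-cadherin, averaged 516 in Rag1-/- GFP+ and 472 in Rag1-/- GFP- cells, against 246 in Rag1-sufficient GFP+ and 282 in Rag1-sufficient GFP- cells. Closest to Gzmb were Lysmd4 (0.96), Pkd1l1 (0.95), Yju2 (0.95), Arhgap19 (0.92) and Tff2 (0.91), and closest to Gzmm were Rfx1 (0.98), Tet3 (0.98), Olfr411 (0.97), Rnf26 (0.97) and Dgkz (0.96). A correlation over 0.9 was held by 33 genes for Gzmc, 34 for Prf1, 5 for Gzmb and 39 for Gzmm.

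Gzmc and Gzmb belong to a cluster of granzyme and mast cell protease genes on chromosome 14. In RefSeq order the protein-coding genes are Cma1, Cma2, Mcpt1, Mcpt2, Mcpt9, Mcpt4, Mcpt8, Ctsg, Gzme, Gzmd, Gzmg, Gzmn, Gzmf, Gzmc and Gzmb. The other 5 granzymes of the cluster all had a mean under the filter limit and were not tested. Gzmd read 9.66 to 11.7, Gzme 15.8 to 21.0, Gzmg 15.4 to 20.2 and Gzmn 13.7 to 15.8 over all arrays. Gzmf read 43.5 on Rag1-/- GFP+ replicate 2 and 21.6 to 29.9 on the other arrays. Summed, these 5 sets read 91.3 to 108 on the Rag1-/- GFP+ and 88.6 to 91.1 on the Rag1-/- GFP- arrays, against 83.3 to 86.4 on the Rag1-sufficient GFP+ and 85.7 to 87.1 on the Rag1-sufficient GFP- arrays. No array read them near the Gzmc level of the Rag1-/- groups, but at such dim readings their direction cannot be judged.

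**Figure D3:**
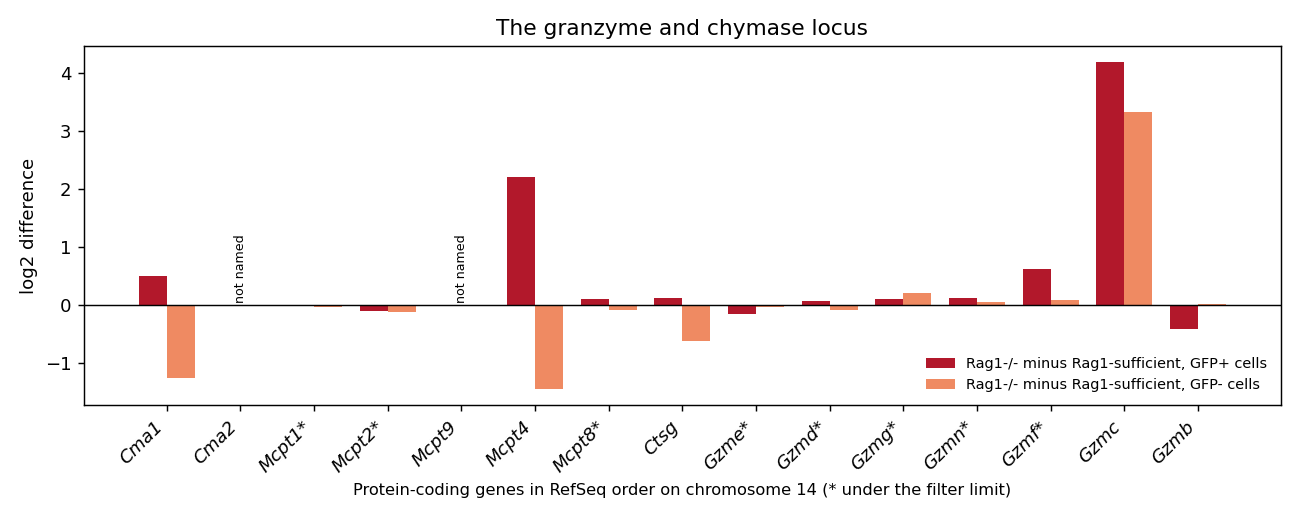
Log2 differences between Rag1-/- and Rag1-sufficient cells, for GFP+ and GFP- cells, along the protein-coding genes of the cluster in their chromosomal order, with an asterisk on genes under the filter limit and Cma2 and Mcpt9 left out because their sets carry several symbols. Gzmc has bars of 4.18 and 3.32, the adjacent Gzmb of -0.41 and 0.01, and Mcpt4 of 2.20 and -1.44 with an SE of 1.42 and 1.30.

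Mast cell proteases at the other end of the cluster differed between the gates of Rag1-sufficient mice. Of 9 listed neighbours 6 had a probe set with 1 gene symbol and 3 were tested. Of these, Cma1 and Ctsg fell in GFP+ cells of Rag1-sufficient mice and none was called in the other comparisons. Cma1, mast cell chymase, averaged 55.1 ± 1.51 in GFP+ and 331 ± 27.2 in GFP- cells (SD, n = 2 each), a difference of -2.56 ± 0.31 (limma adjusted p = 0.0112). Ctsg, cathepsin G of mast cells and neutrophils, averaged 40.0 ± 9.84 in GFP+ and 76.3 ± 0.0156 in GFP- cells (SD, n = 2 each), a difference of -0.93 ± 0.14 (limma adjusted p = 0.0242). The GFP+ mean of Ctsg lies under the filter limit, so the size of its difference is approximate. The Cma1 call was lost without any of the 4 Rag1-sufficient arrays (adjusted p 0.0863 to 0.147). The Ctsg call was lost without Rag1-sufficient GFP+ replicate 2 (0.0960, with a difference of -0.69), without either Rag1-sufficient GFP- array (0.168 and 0.206), without Rag1-/- GFP- replicate 2 (0.0605) and when only these groups were fitted (0.104). Mcpt4, another mast cell chymase, differed by -6.66 ± 1.42 (limma adjusted p = 0.0915), with a GFP+ mean of 24.2 that also lies under the filter limit.

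Mast cell transcripts stood beside the Gzmc values as follows. Of 13 mast cell markers 10 were tested, of which 8 fell in GFP+ cells of Rag1-sufficient mice (median -2.17, against 0.01 over all sets) and none was called elsewhere. The 8, named here after their values were seen, were Cma1, Tpsb2, Mrgprb1, Kit, Ms4a2, Hdc, Cyp11a1 and Slc45a3, and none of them was called when any of the 4 Rag1-sufficient arrays was left out (adjusted p 0.0599 to 0.298). Without Rag1-/- GFP- replicate 2 Kit, Ms4a2, Hdc and Slc45a3 lost the call (0.0524 to 0.0857), and without replicate 3 Slc45a3 did (0.0587). Over all alternative settings the call was lost in 7 of 18 for Kit, 7 of 17 for Ms4a2, 6 of 18 for Hdc and 9 of 18 for Slc45a3. The summed intensity of the list was 1479 to 5033 in Rag1-/- GFP+ cells, 4966 to 6261 in Rag1-/- GFP- cells, 1059 to 1140 in Rag1-sufficient GFP+ cells and 10744 to 10924 in Rag1-sufficient GFP- cells. The mast cell carboxypeptidase Cpa3 read 2085 and 19.9 in Rag1-/- GFP+ cells, 2009 to 2686 in Rag1-/- GFP- cells, 20.3 and 21.5 in Rag1-sufficient GFP+ cells and 4932 and 4965 in Rag1-sufficient GFP- cells. On Rag1-/- GFP+ replicate 2 Cpa3 was under the filter limit while Gzmc read 872. On the Rag1-sufficient GFP- arrays Cpa3 was highest while Gzmc read 86.6 and 88.6. Within Rag1-sufficient mice Gzmc as well as Cpa3 read higher in GFP- than in GFP+ cells, where Gzmc read 45.2 and 31.3. The part of mast cells in the Gzmc values was not tested.

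Among T cell markers, 1 was called by genotype. Of 16 listed markers 15 had a probe set with 1 gene symbol and 14 were tested. Of these, Cd3e rose in Rag1-/- GFP+ cells and none was called in the other comparisons. The median genotype difference of the list was 0.22 in GFP+ and 0.42 in GFP- cells, against -0.02 and 0.00 over all sets. Of the 14 tested markers 5 had a negative difference in GFP+ cells and 4 in GFP- cells. Thy1, for example, averaged 4469 in Rag1-/- GFP+ and 5126 in Rag1-sufficient GFP+ cells. Cd3e, a signalling chain of the T cell receptor complex, read 763 and 1981 in Rag1-/- GFP+ cells and 925, 765 and 942 in Rag1-/- GFP- cells, against 233 and 157 in Rag1-sufficient GFP+ cells and 270 and 238 in Rag1-sufficient GFP- cells. The difference in GFP+ cells was 2.68 ± 0.39 (limma adjusted p = 0.0419) and was called in 7 of 19 alternative settings, and that in GFP- cells was 1.78 ± 0.36 (limma adjusted p = 0.101). Leaving out any array but the 2 of Rag1-/- GFP+ cells took the adjusted p over the threshold in GFP+ cells (0.0782 to 0.365), with a difference of 2.39 without Rag1-sufficient GFP+ replicate 2. Other chains of the same complex also read higher on every Rag1-/- array than on any Rag1-sufficient one, without a call. Of all tested sets 1.32% had that separation. Cd3g lay at 1831 to 4859 against 891 to 1767, Cd3d at 52.9 to 125 against 27.1 to 51.4, and Cd247 at 162 to 250 against 124 to 139, and these 2 last genes are outside the naming rule and were added after their values were seen. The summed T cell markers were 8362 to 13861 in Rag1-/- GFP+, 10341 to 12223 in Rag1-/- GFP-, 9066 to 9428 in Rag1-sufficient GFP+ and 6221 to 6536 in Rag1-sufficient GFP- cells, and no marker was at 0. Thy1, which is also among the ILC genes bright on all arrays, made up 3121 to 5227 of these sums, so they do not measure T cells alone. Cd8a, a chain of the co-receptor of cytotoxic T cells that is also outside the naming rule, read 51.7 to 67.5 on all arrays. The part of T cells or of CD3 transcripts within ILCs in the Gzmc values was not tested.

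NK cells are the other common source of perforin. Of 14 listed NK markers 10 had a probe set with 1 gene symbol and 4 were tested, none of them called in any comparison. Their median difference between genotypes was 1.02 in GFP+ and 0.60 in GFP- cells, against -0.02 and 0.00 over all sets. The defining NK genes were dim everywhere, with Ncr1 at 35.7 to 51.4, Klrb1c at 16.1 to 21.2 and Eomes at 29.4 to 41.8. Klrd1, the CD94 chain of NK receptors, read 46.9 and 281 in Rag1-/- GFP+ cells and 83.4, 66.2 and 193 in Rag1-/- GFP- cells, against 24.8 and 26.4 in Rag1-sufficient GFP+ cells and 32.9 and 37.5 in Rag1-sufficient GFP- cells. Its differences of 2.12 ± 0.73 in GFP+ and 1.51 ± 0.67 in GFP- cells were not called (limma adjusted p = 0.569 and 0.291). Both Rag1-sufficient means of Klrd1 (25.6 in GFP+ and 35.2 in GFP- cells) lie under the filter limit, so the size of these differences is approximate. The summed NK markers were 490 to 1551 in Rag1-/- GFP+, 648 to 1137 in Rag1-/- GFP-, 757 to 965 in Rag1-sufficient GFP+ and 640 to 673 in Rag1-sufficient GFP- cells. Klrk1, the activating receptor NKG2D, had a negative genotype difference in GFP+ cells (-1.36 ± 0.48, limma adjusted p = 0.587). Klrc1, another listed NK marker, read 115 to 512 on the Rag1-/- GFP+ and 193 to 384 on the Rag1-/- GFP- arrays. It read 79.9 to 178 on the Rag1-sufficient GFP+ and 161 to 198 on the Rag1-sufficient GFP- arrays, so the genotypes overlapped in both gates.

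**Figure D4:**
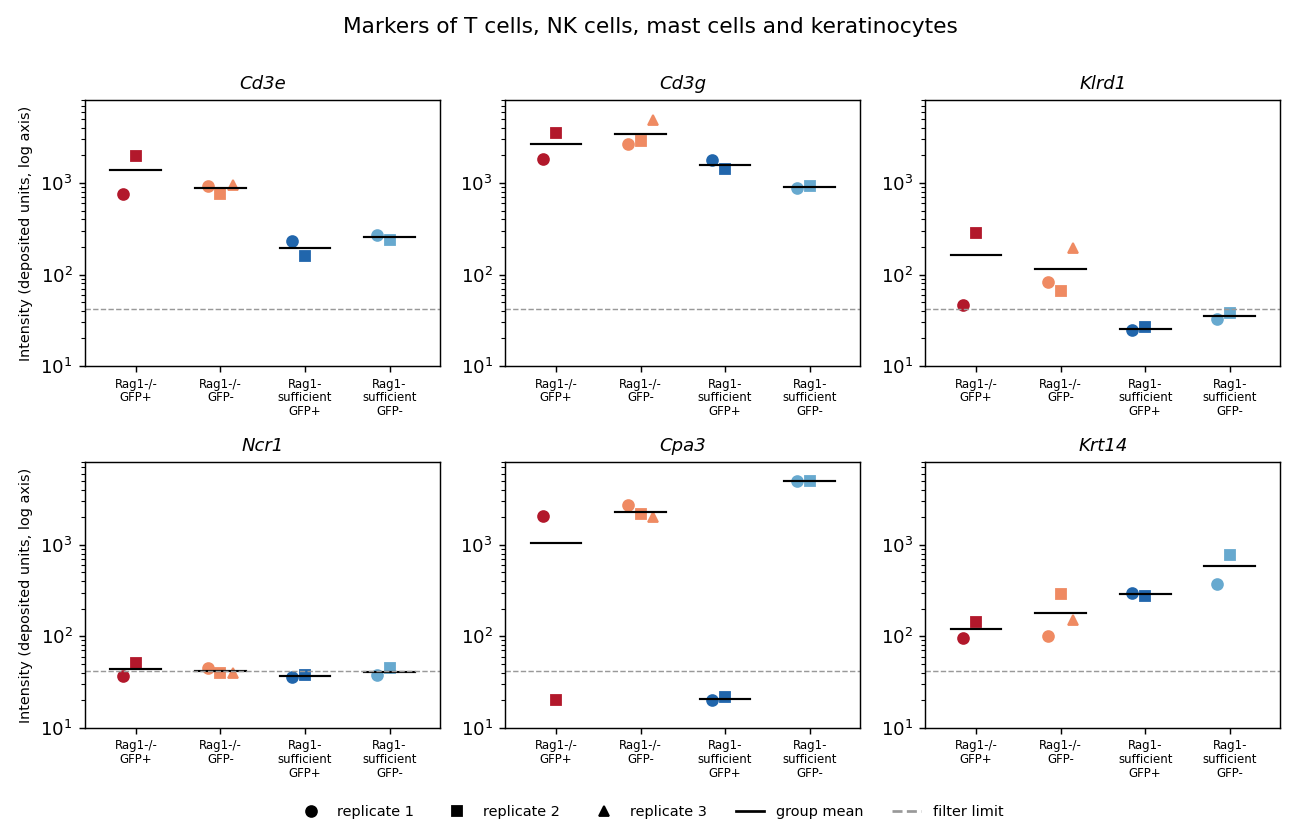
Intensities of the T cell genes Cd3e and Cd3g, the NK genes Klrd1 and Ncr1, the mast cell gene Cpa3 and the keratinocyte gene Krt14 on each array, on a log axis, by group, with the group mean as a bar and the filter limit of 41.6 as a dashed line. Cd3e and Klrd1 are higher on all Rag1-/- arrays than on the Rag1-sufficient ones, Ncr1 stays at 35.7 to 51.4, and Cpa3 separates the 2 Rag1-/- GFP+ arrays (2085 and 19.9).

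Rag1-/- GFP+ replicate 2 was the highest array of all 9 for Prf1, Cd3e, Klrd1, Nkg7 and Tbx21, and lay between the other Rag1-/- arrays for Gzmc. Without that array the genotype difference of Gzmc in GFP+ cells was 3.86, and without replicate 1 of that group it was 4.50. Keratinocyte markers (10 tested of 12) summed to 1872 to 2109 in Rag1-/- GFP+, 2011 to 2797 in Rag1-/- GFP-, 2458 to 2840 in Rag1-sufficient GFP+ and 2891 to 4345 in Rag1-sufficient GFP- cells, with none called. Of 8 tested macrophage and dendritic cell markers Xcr1 was called, a gene outside the naming rule that was picked after its values were seen. It fell in GFP+ cells of Rag1-sufficient mice (-0.78 ± 0.07, limma adjusted p = 0.00843) and in Rag1-/- GFP- cells (-0.72 ± 0.07, limma adjusted p = 0.0125). The gate call was lost without any of the 4 Rag1-sufficient arrays (0.0688 to 0.104), and the genotype call without either Rag1-sufficient GFP- array (0.0663 and 0.164), without Rag1-/- GFP- replicate 2 (0.0670) or 3 (0.0636) and with only the groups compared (0.0503). None of the 2 tested B and plasma cell markers and of the 10 ILC2 markers was called. The part of these cells in the members' values was not tested.

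The genes that build and release cytotoxic granules gave no call. Of 22 listed genes 20 were on the array and 19 were tested, and with limma none passed in any comparison. Their median difference between genotypes was -0.04 in GFP+ and 0.16 in GFP- cells, and between gates it was -0.06 in Rag1-/- and 0.12 in Rag1-sufficient mice. Srgn, the proteoglycan that packs granzymes in the granule, read 9561 to 10868 on all arrays. Nkg7, a granule membrane protein needed for degranulation, read 1455 and 4575 in Rag1-/- GFP+ cells, 1725 to 2052 in Rag1-/- GFP- cells, 2980 and 3081 in Rag1-sufficient GFP+ cells and 1074 and 1031 in Rag1-sufficient GFP- cells. Its gate difference in Rag1-sufficient mice was 1.52 ± 0.42 (limma adjusted p = 0.170), where that of Gzmc was negative. Ctsw, a cathepsin of cytotoxic lymphocytes, averaged 2379 ± 786 in Rag1-/- GFP+ and 2206 ± 79.2 in Rag1-sufficient GFP+ cells (SD, n = 2 each), a difference of 0.07 ± 0.20. Lamp2, a lysosome membrane protein, differed between genotypes by -0.30 ± 0.19 in GFP+ and 0.15 ± 0.18 in GFP- cells.

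Serpins that block granzymes inside the cell gave 1 call. Of 5 listed 4 were tested, and Serpinb1a, an inhibitor of neutrophil serine proteases and chymases that also acts on granzyme H in humans, fell in GFP+ cells of Rag1-sufficient mice. It averaged 224 ± 2.91 in GFP+ and 658 ± 5.22 in GFP- cells (SD, n = 2 each), a difference of -1.55 ± 0.23 (limma adjusted p = 0.0220). The call was lost without any of the 4 Rag1-sufficient arrays (adjusted p 0.159 to 0.205) and without Rag1-/- GFP- replicate 2 (0.0539). In Rag1-/- mice the difference between the gates was -0.62 ± 0.21 (limma adjusted p = 0.688), and the interaction was 0.93 ± 0.31 (limma adjusted p = 0.279). Serpinb9, the inhibitor of Gzmb, differed between genotypes by 0.20 ± 0.26 in GFP+ and 0.69 ± 0.24 in GFP- cells (limma adjusted p = 0.940 and 0.222). Serpinb6a differed by 0.18 ± 0.22 in GFP+ and by 0.94 ± 0.20 in GFP- cells (limma adjusted p = 0.936 and 0.122), and all 3 Rag1-/- GFP- arrays read above both Rag1-sufficient GFP- arrays for Serpinb6a and for Serpinb9, as 23.0% of all sets did. Serpinb6b differed by -0.25 ± 0.31 in GFP+ and 0.36 ± 0.29 in GFP- cells.

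**Figure D5:**
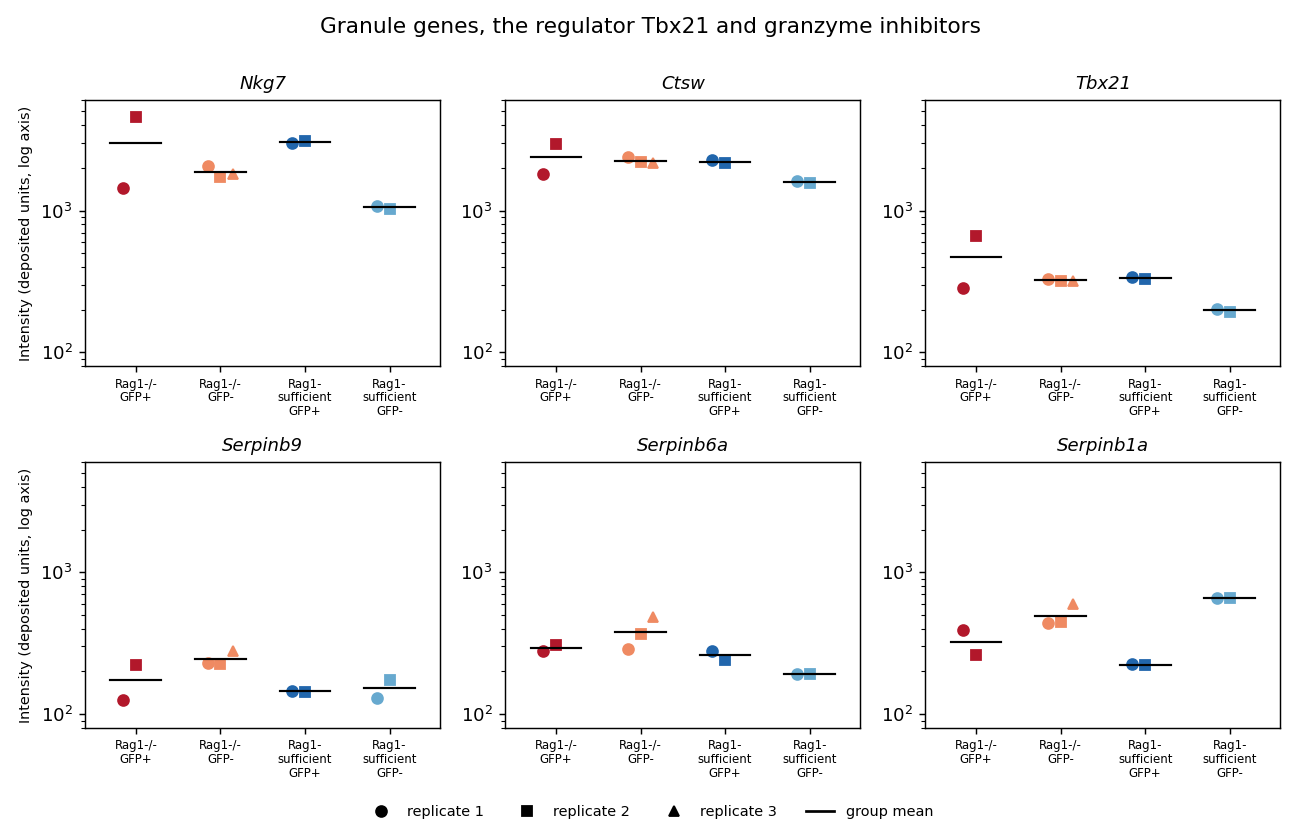
Intensities of the granule genes Nkg7 and Ctsw, the regulator Tbx21 and the serpins Serpinb9, Serpinb6a and Serpinb1a on each array, on a log axis, by group, with the group mean as a bar. Serpinb1a lies at 222 and 226 on the Rag1-sufficient GFP+ arrays and at 654 and 662 on the GFP- arrays of the same genotype, while Nkg7 and Tbx21 peak on Rag1-/- GFP+ replicate 2 at 4575 and 661.

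Regulators of cytotoxic genes gave no call in any comparison (8 tested of 11 listed), with median genotype differences of 0.04 in GFP+ and -0.09 in GFP- cells. Id2, which ILCs and cytotoxic cells need, differed by -0.04 ± 0.08 and -0.01 ± 0.07. Runx3, which binds the Runx motif and acts on cytotoxic genes in T cells, differed by 0.22 ± 0.26 in GFP+ and -0.12 ± 0.24 in GFP- cells, Stat4 by -0.12 ± 0.22 and -0.06 ± 0.20, and Stat5a by -0.39 ± 0.16 and -0.31 ± 0.14. Tbx21, which encodes T-bet and drives Gzmb and Prf1 in T and NK cells, is outside the naming rule and was added after its values were seen. It read 283 and 661 in Rag1-/- GFP+ cells, 317 to 330 in Rag1-/- GFP- cells, 343 and 330 in Rag1-sufficient GFP+ cells and 203 and 193 in Rag1-sufficient GFP- cells. Its genotype difference was 0.36 ± 0.32 in GFP+ and 0.70 ± 0.29 in GFP- cells (limma adjusted p = 0.905 and 0.275). Eomes, its relative in NK cells, was under the filter limit in every group mean and was not tested.

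Receptors for cytokines that induce granzymes gave no call either (8 tested of 9 listed, median genotype differences 0.13 in GFP+ and -0.00 in GFP- cells). Il2rb, the chain shared by the interleukin-2 and interleukin-15 receptors, read 2973 to 4548 on all arrays and differed by -0.00 ± 0.18 and -0.05 ± 0.17 between genotypes. Il2ra, which raises affinity for interleukin-2, differed by 0.56 ± 0.22 in GFP+ cells and 0.05 ± 0.20 in GFP- cells. Il18r1, a chain of the interleukin-18 receptor, differed by 0.00 ± 0.20 and 0.17 ± 0.18, and its partner chain Il18rap by 0.45 ± 0.21 and -0.29 ± 0.19.

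Other weapons of cytotoxic cells and the proteins granzymes act on in target cells were also without a call. Of 5 death ligands and effector cytokines 4 were tested, with median genotype differences of 0.05 in GFP+ and 0.30 in GFP- cells. Ifng, the type 1 cytokine, read 95.4 and 553 in Rag1-/- GFP+ cells, 149 to 218 in Rag1-/- GFP- cells, 488 and 375 in Rag1-sufficient GFP+ cells and 114 and 237 in Rag1-sufficient GFP- cells. Its gate difference in Rag1-sufficient mice was 1.37 ± 0.69 (limma adjusted p = 0.464), and its genotype difference in GFP+ cells was -0.89 ± 0.69 (0.878). Tnf read 657 to 1088 on all arrays. The genotype differences of Lta and Tnfsf10, which encodes the death ligand TRAIL, were 0.51 ± 0.16 and 0.44 ± 0.16 in GFP- cells (limma adjusted p = 0.196 and 0.240). Of 13 substrates and death proteins 10 were tested (medians -0.11 in GFP+ and 0.01 in GFP- cells), and the initiator caspase gene Casp8 differed by -0.30 ± 0.25 and 0.04 ± 0.23 between genotypes. In the comparison of gates in Rag1-/- mice 0 of all 17445 sets were called in the limma fit, and 1098 (6.29%) had an unadjusted p under 0.05. For the interaction 0 were called as well, and 2378 (13.6%) had an unadjusted p under 0.05.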

How the data were processed

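RNA of 9 sorted samples of skin ILCs was measured on one-colour Affymetrix arrays. For each of 24922 probe sets the authors deposited a linear intensity on every array. Per the submitters' processing notes MAS5 was used, with no version or role given. The normalization between arrays was not given in the sources used here. Per the labels' protocols biotinylated single-stranded DNA was hybridised. In 12464 sets at least 2 of the 9 arrays held equal values, within a group or between groups. Ties within a small group can understate its spread, and their share was not counted.

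Intensities were transformed as log2(value + 1), which understates changes of dim genes. The 30% of sets with the lowest mean were left out, leaving 17445 sets for 13924 named genes. One mean per group was fitted with limma 3.58.1 in R 4.3.3 (eBayes with an intensity trend), and p-values were two-sided and Benjamini-Hochberg adjusted over all sets at a threshold of 0.05. The script was tested on simulated data. Tables and sequences were handled with Python 3.11.15, pandas 2.3.3 and Biopython 1.88. The number of arrays limits the precision.

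Genes were named from the platform annotation (21425 sets with 1 symbol, 1399 with several, 2098 with none), and 21347 sets matched the RefSeq table of GRCm38.p6, used for symbols, gene order and promoters. Where a gene had several sets, the one with the highest mean stood for it. The members and the gene lists were chosen with earlier results of these data known. Genes named are all members and, of each list of pathway genes, the called ones or otherwise the 4 brightest. Of each marker list they are the brightest (at most 4) and the defining genes. The 5 genes most correlated with each member are named too, with predicted genes and clones passed over. The alternatives tried were other filters, pseudocounts, normalizations and variance models, array weights, a replicate block, fits of only the groups compared, and leaving out each array.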

Additional observations from a re-analysis of the deposited data

How the results depend on the processing

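The direction of the Gzmc differences by genotype held in all alternatives run. In GFP+ cells Gzmc differed by 3.73 to 4.50 and in GFP- cells by 3.12 to 3.51. The counts of called sets were unstable. Between gates in Rag1-sufficient mice they were 140, 1290 with array weights, 73 with the replicate block and 3 to 335 with each array left out in turn. Between gates in Rag1-/- mice they were 0, and 0 to 7 with an array left out. By genotype in GFP+ cells they were 43, against 17 with quantile normalization, 3 without the intensity trend, 2 with the replicate block, 0 with only the groups compared and 1 to 135 with an array left out. By genotype in GFP- cells they were 25, against 9 with the lowest 50% of sets left out, 43 with a pseudocount of 16, 38 with robust eBayes, 1168 with array weights, 6 with the replicate block, 8 with only the groups compared and 1 to 139 with an array left out. For the interaction they were 0, against 1 with the 50% filter, 1 with quantile normalization, 31 with array weights and 0 to 500 with an array left out, the highest without Rag1-/- GFP+ replicate 2. The cause was not tested. Same-numbered arrays did not deviate together (correlations of -0.24 to 0.08), so replicate numbers are not taken as pairs. Under the block Ctsg (adjusted p = 0.0541), Kit (0.0663), Ms4a2 (0.0582), Slc45a3 (0.104), Cd3e (0.130) and Xcr1 by genotype (0.0949) were not called. A crossed pairing of the GFP+ arrays, chosen after seeing the data, left 2 calls by genotype. Replicate 3 exists in 1 group alone and adds nothing under the block. Leaving out an array of a 2-array group leaves a lone array, assumed to vary like the others.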
